A study of Rattus norvegicus with 24 samples.

Results

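The liver proteins of the complement and coagulation cascades were followed in rats fed rotenone, which blocks complex I in mitochondria. The set holds 41 gene symbols, listed by the function of their products as complement components, clotting factors, fibrinogen chains, proteins of fibrinolysis and plasma inhibitors of hepatocytes. The symbols were chosen with earlier results of these data known, and measured values entered the rule only in the choice of a symbol's cluster, that of highest mean over all 24 arrays. Of these, 39 had a transcript cluster of their own among the 22093 genes measured. C2 and Cfb, the serine proteases of the classical and the alternative C3 convertase, shared 1 cluster annotated to both and were not measured on their own.

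Liver RNA came from 24 male RccHan Wistar rats, 7 to 8 weeks old, that received chow with 0 or 400 ppm rotenone for 1, 3 or 14 days. Each of the 6 groups (control day 1, rotenone day 1, control day 3, rotenone day 3, control day 14 and rotenone day 14) held 4 animals, with 1 Rat Transcriptome Array 1.0 per animal, and all animals shared strain, sex, housing and base diet. Rotenone was mixed into freely available chow, so that the dose taken up depended on the amount eaten. The paper reports a reduced body weight of the treated rats against controls. An action of rotenone cannot be told apart from changes in eating or growth in any comparison of rotenone with control. Whole liver was extracted, so that fewer cells of a type and less RNA per cell cannot be told apart in any value below.

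Hepatocytes release most complement and clotting proteins of the plasma as inactive precursors. Complement is started by C1 on antibody or by mannose-binding lectins on microbial sugars, converges on C3 and ends with C5b, C6, C7, C8 and C9 assembling a pore in the target membrane. Clotting is a relay of proteases that ends with thrombin cutting fibrinogen, several of its factors need a vitamin K-dependent modification, and protein C, antithrombin and plasmin limit or dissolve the clot. The short stretch before the start of such genes often carries letters recognised by liver-enriched factors of the HNF and C/EBP families.

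Values are log2 of the deposited intensity plus 1, and changes are differences of log2 means, rotenone minus control of the same day, with the moderated standard error (SE) of a linear model over all 24 arrays. A change is said to have passed where its adjusted p, from limma with Benjamini-Hochberg adjustment over all 68842 clusters, lay under 0.05. Array medians lay between 28.9 and 35.5 on the intensity scale, arrays of a group correlated with r between 0.990 and 0.996, and negative control probe sets had array medians between 5.01 and 5.43 in log2. All 13 hepatocyte markers found, albumin among them, lay above the negative controls in every group. Their mean log2 level was between 17.44 and 17.57 in control day 14 livers and between 17.23 and 17.44 in rotenone day 14 livers, with 2 markers lower by limma on day 14 (Apoa1 and Fabp1), 1 lower on day 3 (Fabp1) and 1 higher on day 1 (Apoa1). Among all genes 3.33% were lower on day 14, 3.11% lower on day 3 and 5.69% higher on day 1. Among genes with a mean log2 level of at least 14 these shares were 16.6%, 6.97% and 12.0%. On day 14 the differences of the 13 markers had a median of -0.06 and lay between -1.90 and 0.39, with 5 above and 8 below 0. The part of these shifts in the members' values was not tested. Rotenone day 14 replicate 1 stood apart from the other arrays of its group, with a median deviation of the members from the control mean of -0.01 against -0.14, -0.16 and -0.27 in replicates 2, 3 and 4. Results of day 14 are given with and without it where it changed them.

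Upstream sequences are shown for 5 members that passed on at least 1 day, C6, C8a and Mbl1 for the falls and F5 and Proc for the rises. They hold the 250 bases before the annotated start and were taken from RefSeq (GRCr8), where 31 of the 39 members had an entry. Capitals mark matches on either strand to the HNF1 motif GTTAAT, the HNF4 core CAAAG, the C/EBP core TTGCNNAA, the STAT core TTCNNNGAA or the E-box CACGTG. The windows are C6 chr2:55573383-55573632 (forward strand), C8a chr5:124866632-124866881 (reverse strand), Mbl1 chr16:17062982-17063231 (forward strand), F5 chr13:79046407-79046656 (forward strand) and Proc chr18:24048942-24049191 (reverse strand).
C6: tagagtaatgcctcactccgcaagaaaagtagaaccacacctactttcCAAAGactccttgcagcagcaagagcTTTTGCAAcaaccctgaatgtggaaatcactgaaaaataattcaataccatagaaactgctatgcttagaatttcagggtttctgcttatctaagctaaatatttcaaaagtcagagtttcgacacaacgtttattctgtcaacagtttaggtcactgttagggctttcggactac
C8a: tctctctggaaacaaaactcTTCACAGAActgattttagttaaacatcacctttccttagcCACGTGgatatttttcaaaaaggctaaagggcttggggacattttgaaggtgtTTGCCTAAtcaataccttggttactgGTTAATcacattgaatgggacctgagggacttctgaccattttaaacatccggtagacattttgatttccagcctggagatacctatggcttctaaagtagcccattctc
Mbl1: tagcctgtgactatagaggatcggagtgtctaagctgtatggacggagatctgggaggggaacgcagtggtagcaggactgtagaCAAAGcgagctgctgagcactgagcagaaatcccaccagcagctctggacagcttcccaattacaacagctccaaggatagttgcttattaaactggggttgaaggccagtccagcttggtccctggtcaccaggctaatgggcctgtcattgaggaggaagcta
F5: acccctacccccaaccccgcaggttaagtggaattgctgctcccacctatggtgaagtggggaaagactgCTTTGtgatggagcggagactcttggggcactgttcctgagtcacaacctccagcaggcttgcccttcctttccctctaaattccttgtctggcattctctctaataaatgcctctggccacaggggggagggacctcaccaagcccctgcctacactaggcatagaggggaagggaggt
Proc: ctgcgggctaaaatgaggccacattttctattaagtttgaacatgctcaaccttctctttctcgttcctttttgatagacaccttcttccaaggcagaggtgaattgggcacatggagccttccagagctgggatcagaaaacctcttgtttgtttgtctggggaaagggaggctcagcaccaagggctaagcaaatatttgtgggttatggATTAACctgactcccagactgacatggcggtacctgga

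In C6 the capitals are an HNF4 core match followed by a C/EBP core match, and in Mbl1 and F5 they are 1 HNF4 core match each. C8a held a STAT core, an E-box, a C/EBP core and an HNF1 motif match, and Proc held 1 HNF1 motif match close to the start. The HNF1 motif was found in 10 of the 31 members with an entry (32.3%), against 6.46% of 27457 genes with a window of the same length. The C/EBP core was found in 11 members (35.5%) against 9.20%, the STAT core in 7 (22.6%) against 7.52%, the HNF4 core in 21 (67.7%) against 48.1%, and the E-box in 1 (3.23%) against 5.79%. In C8b, Klkb1 and Serpinc1 the HNF4 core and C/EBP core letters overlapped. A match is a description of the letters, and binding was not measured.

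Over the 3 days 9 members passed on at least 1 day, with 14 calls in all, and 30 passed on none. On day 1, F5, Serping1 and F12 were higher and Mbl1, C6 and C8a were lower, that is 3 members in each direction (7.69% of 39). Among all genes 5.69% were higher and 3.73% lower on that day, and among the 574 genes with a mean log2 level of at least 14, a range that holds 34 of the 39 members, 12.0% were higher and 11.8% lower. On day 3, Proc was higher and C6 and C8a were lower, which is 2.56% and 5.13% of the members against 3.53% and 3.11% of all genes and 11.3% and 6.97% of the genes at or above 14.

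On day 14 no member was higher by limma, against 5.98% of all genes and 14.5% of those at or above 14. C6, Mbl1, C8a, C1s and F13b were lower, 12.8% of the members against 3.33% of all genes and 16.6% of those at or above 14. In these limma calls, on each day and in each direction, the members' share lay below that of the genes at or above 14. That difference was not tested. At an unadjusted p under 0.05, 2 of 39 members were higher on day 14 (Proc and Serpina10) and 15 lower. The same threshold gave 3212 higher and 1991 lower of 22093 genes, and 180 and 158 of the 574 at or above 14. Groups did not overlap for 14 members on day 1 (35.9%), 12 on day 3 (30.8%) and 10 on day 14 (25.6%). The same was true of 18.8%, 16.7% and 15.4% of all genes on these days, and of 39.9%, 39.2% and 38.3% of the genes at or above 14.

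The calls depended in part on scaling. After quantile normalization 1 member was higher and 2 lower on day 1, 3 were higher and 1 lower on day 3, and 1 was higher and 2 lower on day 14. C8a then passed on no day, Serping1 and F12 were lost on day 1 and C1s and F13b on day 14, while C6 passed on all 3 days, Mbl1 on days 1 and 14, F5 on day 1 and Proc on day 3.

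**Figure D1:**
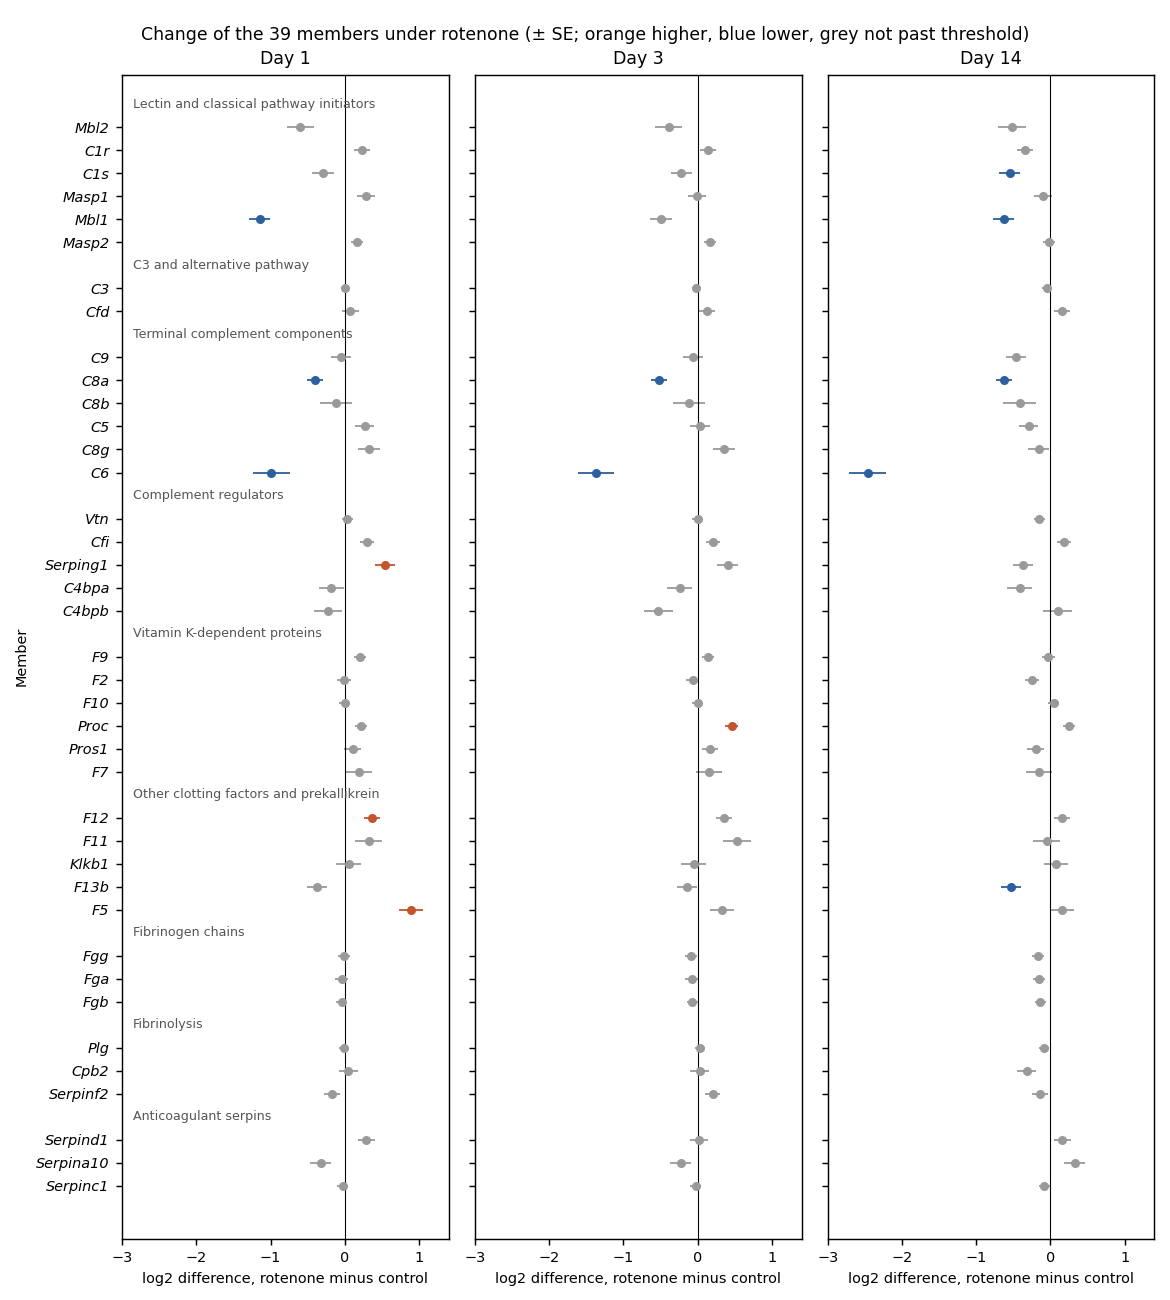
Log2 difference of rotenone minus control (x axis) for each of the 39 members (y axis, ordered by role) on days 1, 3 and 14, as points with bars of ± 1 SE. Orange points passed as higher and blue points as lower. C6 moved from -0.99 on day 1 to -2.46 on day 14, while the 3 fibrinogen chains, C3 and Plg stayed within 0.17 of 0.

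The initiators of the lectin and classical pathways were led by Mbl1, the rat mannose-binding lectin A. Its log2 level was 14.33, 13.97, 14.33 and 14.07 in control day 1 livers and 12.93, 12.84, 13.29 and 13.05 in rotenone day 1 livers. All 4 rotenone arrays lay below all 4 control arrays, and the level fell by 1.15 on the log2 scale (SE 0.14, a 2.21-fold lower mean, adjusted p = 3.27e-05).

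On day 3 Mbl1 lay at 14.03, 13.98, 14.24 and 14.09 in controls and at 13.52, 13.67, 13.66 and 13.51 under rotenone. The groups again did not overlap, but the difference of -0.49 (SE 0.14) had an adjusted p of 0.0586. On day 14 the control values were 14.01, 13.63, 13.93 and 14.20 and the rotenone values 13.73, 13.31, 13.06 and 13.15, with rotenone replicate 1 inside the control range and a fall of 0.63 (SE 0.14, adjusted p = 0.00999).

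Mbl2, the mannose-binding lectin C, gave differences of -0.60 (SE 0.18, adjusted p = 0.0624), -0.39 (adjusted p = 0.342) and -0.52 (adjusted p = 0.113) on the 3 days. On day 1 its rotenone values of 15.99, 16.38, 16.51 and 16.44 all lay below the control values of 16.68, 16.84, 16.89 and 17.33. It passed on no day taken alone. In the mean of the 3 daily differences, a contrast added after the members' values had been seen, it fell by 0.50 (SE 0.11, adjusted p = 0.00195), a call lost after quantile normalization (-0.30, adjusted p = 0.109).

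C1s and C1r encode the serine proteases of the C1 complex and lie next to each other on chromosome 4. C1s measured 15.81, 15.62, 16.03 and 15.97 in control day 14 livers and 15.27, 15.18, 15.57 and 15.20 in rotenone day 14 livers. The groups did not overlap and C1s fell by 0.55 (SE 0.15, adjusted p = 0.0297), but the call was lost without control replicate 3 or 4 or without rotenone replicate 1, 2 or 4 of that day (adjusted p up to 0.103). C1r differed by -0.34 on day 14 (SE 0.11, adjusted p = 0.0736) and by 0.24 on day 1, where C1s differed by -0.30, and none of these 3 values passed.

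Masp1 and Masp2, the proteases that act with the mannose-binding lectins, passed on no day. Masp2 rotenone arrays lay above all control arrays on day 1, with 13.24, 13.29, 13.25 and 13.32 against 13.07, 13.01, 13.20 and 13.14, and the difference was 0.17 (SE 0.08, adjusted p = 0.295). Over the 6 measured initiators the median difference was -0.06 on day 1, -0.11 on day 3 and -0.43 on day 14, against medians of all genes of -0.03, 0.03 and 0.01, and on day 14 all 6 differences were below 0.

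C3, on which the pathways converge, lay between 19.71 and 19.80 on all 24 arrays and above 900000 on the intensity scale on 17 of them, where the highest intensity of the table corresponds to a log2 of 19.93. Its differences were 0.01, -0.02 and -0.05 with an SE of 0.06. Cfd, complement factor D, which is made mainly by adipocytes, lay between 6.56 and 7.19, close to the negative controls, and differed by 0.07, 0.12 and 0.16 on the 3 days, none of which passed.

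The terminal components included C6, the member with the largest fall of the set on days 3 and 14. C6, which joins C5b to begin the membrane attack complex, measured 13.72, 13.63, 13.54 and 14.07 in control day 1 livers and 13.06, 12.91, 12.74 and 12.27 in rotenone day 1 livers. The groups did not overlap and C6 fell by 0.99 (SE 0.25, adjusted p = 0.0202). This call was lost without replicate 4 of either day 1 group (adjusted p up to 0.0769).

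On day 3 C6 lay at 13.58, 13.41, 13.66 and 13.74 in controls and at 11.72, 11.93, 12.31 and 12.97 under rotenone, a fall of 1.37 (SE 0.25, adjusted p = 0.00211). On day 14 the control values were 14.09, 13.19, 14.04 and 14.51 and the rotenone values 11.17, 11.65, 11.60 and 11.56. The highest rotenone array thus lay at 11.65 and the lowest control array at 13.19, and the fall of 2.46 (SE 0.25, a 5.51-fold lower mean, adjusted p = 2.01e-06) held without any of the 24 arrays in turn, between -2.72 and -2.28.

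The difference of the C6 change between day 14 and day 1 was -1.47 (95% interval -2.20 to -0.74, adjusted p = 0.0462). Leaving out 1 array ended this call for 20 of the 24 arrays (adjusted p up to 0.101), all but control day 14 replicate 2, rotenone day 1 replicate 4 and rotenone day 3 replicates 1 and 4, and it was also lost after quantile normalization (adjusted p = 0.0548) and with array weights (adjusted p = 0.0521). The test of any difference among the 3 days gave an adjusted p of 0.0953. Between day 14 and day 3 it was -1.09 (adjusted p = 0.396). Control livers of day 3 and day 14 did not pass for C6 against those of day 1. The other late component C7, which is not in the set, fell by 1.31 on day 14 (SE 0.28, adjusted p = 0.00641).

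C8 consists of an alpha, a beta and a gamma chain from separate genes. C8a measured 17.35, 17.44, 17.41 and 17.36 in control day 1 livers and 17.02, 16.90, 17.08 and 16.96 under rotenone, a fall of 0.40 (SE 0.11, adjusted p = 0.0357). That call was lost without any of the 8 arrays of day 1 in turn, although the groups did not overlap.

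On day 3 C8a lay at 17.28, 17.45, 17.26 and 17.54 in controls and at 16.89, 16.71, 16.94 and 16.90 under rotenone (fall of 0.52, SE 0.11, adjusted p = 0.00697). On day 14 it lay at 17.29, 17.15, 17.39 and 17.50 in controls and at 17.06, 16.60, 16.53 and 16.64 under rotenone (fall of 0.63, SE 0.11, adjusted p = 0.00108). C8a kept both later calls without any array in turn, but neither of them with the 8 arrays of that day alone. Rotenone replicate 1 of day 14 was the closest of its group to the controls.

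The partner chains did not pass on any day. C8b, the direct neighbour of C8a on chromosome 5, differed by -0.12, -0.12 and -0.42 with an SE of 0.22. On day 14 its rotenone values of 16.60, 16.64, 16.44 and 16.58 lay below all control values of 16.99, 16.86, 17.02 and 17.04. On the earlier days 3 arrays lay apart, control day 1 replicate 2 at 16.07, rotenone day 1 replicate 4 at 16.16 and control day 3 replicate 3 at 16.18, while the others lay at or above 16.65. C8g differed by 0.33, 0.36 and -0.16 (SE 0.15), with rotenone arrays above all controls on days 1 and 3. Whether the chains differed from each other in response was not tested.

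C9, which forms the wall of the pore, gave -0.46 on day 14 (SE 0.13, adjusted p = 0.0501). Its rotenone values there were 17.24, 16.59, 16.73 and 16.47 against 17.05, 17.17, 17.33 and 17.34 in controls, so that only rotenone replicate 1 overlapped the controls. Without that array C9 passed, as it did without control day 1 replicate 1 or 3 or control day 14 replicate 1. It also passed with array weights, the pseudocount of 16 and the filter on low values. C5, cut to release the anaphylatoxin C5a, differed by 0.27, 0.03 and -0.29. All 6 terminal components were below 0 on day 14, with a median of -0.44, after medians of -0.09 on both earlier days.

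**Figure D2:**
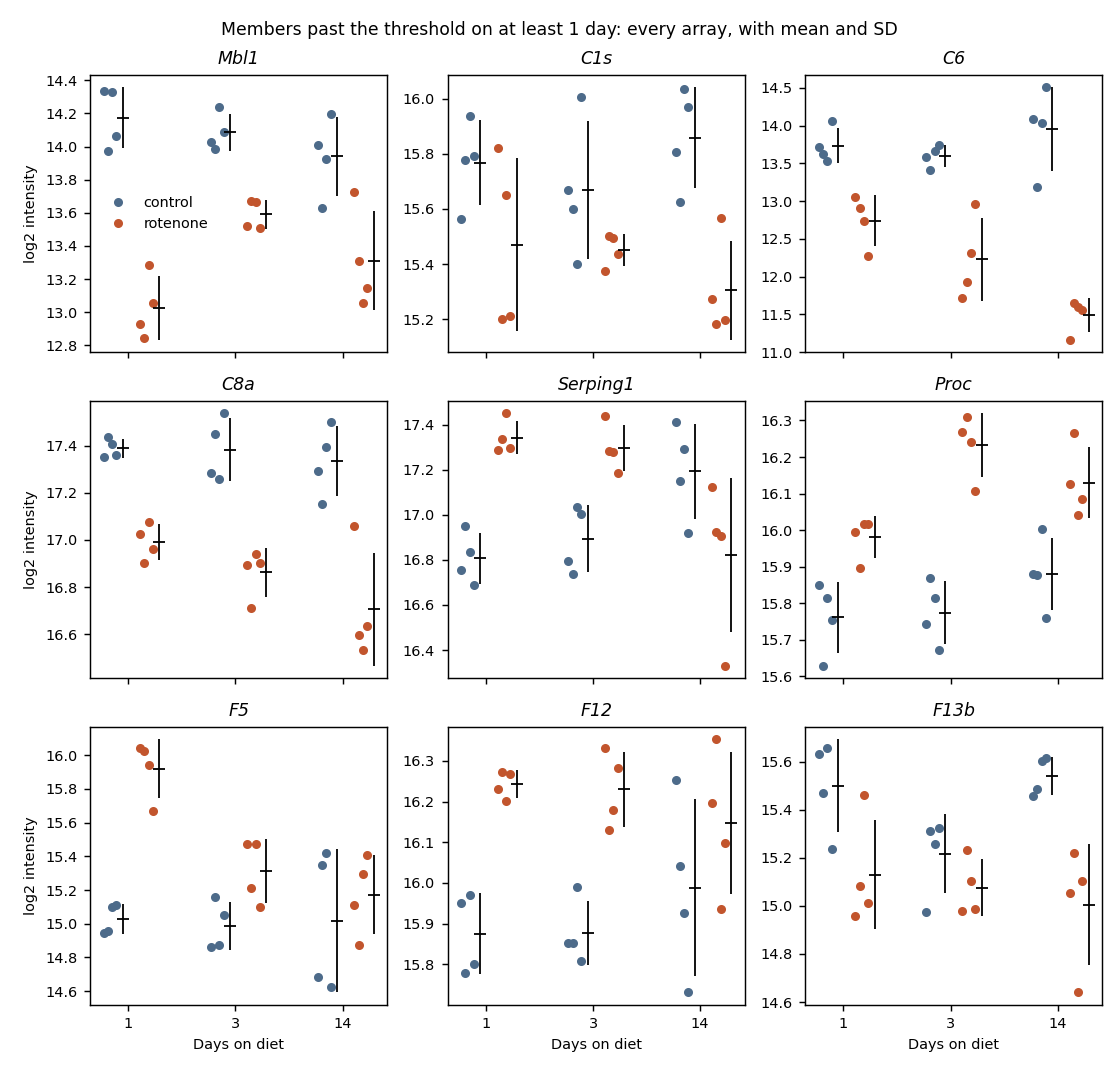
Log2 intensity (y axes, own range per panel) of the 9 members that passed on at least 1 day, on every array by days on diet (x axis), with the group mean and SD beside the points. Control arrays are blue and rotenone arrays orange. The C6 rotenone arrays of day 14 lie between 11.17 and 11.65 and all control arrays at or above 13.19, while Serping1 lies above the controls on days 1 and 3 and overlaps them on day 14.

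Among the regulators, Serping1 (C1 inhibitor, the serpin that blocks C1r, C1s, kallikrein and factor XIIa) measured 16.75, 16.95, 16.84 and 16.69 in control day 1 livers and 17.29, 17.34, 17.45 and 17.30 in rotenone day 1 livers. The groups did not overlap, and Serping1 rose by 0.54 (SE 0.14, adjusted p = 0.0216). The call was lost without control replicate 1 or 4 or rotenone replicate 2 or 3 of that day (adjusted p up to 0.0725).

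On day 3 Serping1 lay at 16.80, 16.74, 17.04 and 17.00 in controls and at 17.44, 17.28, 17.28 and 17.19 under rotenone, a difference of 0.40 (SE 0.14, adjusted p = 0.126) without overlap. On day 14 it lay at 17.41, 17.15, 17.29 and 16.92 in controls and at 17.12, 16.93, 16.90 and 16.33 under rotenone, a difference of -0.37 (SE 0.14, adjusted p = 0.128) with overlap. The sign thus turned between the days.

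Serping1 was the only member to pass the test of any difference among the 3 days (adjusted p = 0.0402), as did 1.41% of all genes. The call was lost after quantile normalization (adjusted p = 0.459) and after array-median centring (adjusted p = 0.0801). Leaving out 1 array ended it for 18 of the 24 arrays (adjusted p up to 0.0909), all but control day 1 replicate 2, control day 3 replicate 3, control day 14 replicate 4, rotenone day 1 replicate 4, rotenone day 3 replicate 4 and rotenone day 14 replicate 1. Its change on day 14 was 0.91 below that on day 1 (95% interval -1.31 to -0.51, adjusted p = 0.0222), or 0.64 below it after quantile normalization, where it did not pass (adjusted p = 0.314). It was also lost without control day 1 replicate 4, control day 14 replicate 3 or rotenone day 1 replicate 3 (adjusted p up to 0.0537). The control level itself was 0.39 higher on day 14 than on day 1 (SE 0.14, unadjusted p = 0.00942, adjusted p = 0.651). Serping1 is also made by macrophages, fibroblasts and endothelial cells. Of the markers of these cells, 4 of 16 Kupffer cell and macrophage markers were higher on day 1 (mean log2 level 9.97 to 10.43 against 9.37 to 10.24 in controls) and 4 lower on day 14 (9.05 to 9.58 against 9.75 to 10.20). Of 14 sinusoidal endothelial markers, 7 were higher on day 1 (9.69 to 10.31 against 9.36 to 9.71). On day 3, 0 macrophage markers were higher and 1 lower, and 0 endothelial markers were higher and 0 lower. On day 14, 1 endothelial marker was higher and 1 lower. Among all genes 5.69% were higher on day 1, 3.11% lower on day 3 and 3.33% lower on day 14. Of 18 stellate cell and fibroblast markers, 1 was higher on day 1, and 7 were lower on day 3 (mean log2 level 7.98 to 8.36 against 8.85 to 8.92) and 7 on day 14 (7.99 to 8.47 against 8.71 to 8.90), where the Serping1 differences were 0.40 and -0.37. No macrophage or endothelial marker lay at or below the negative controls, against 1 or 2 of the stellate cell and fibroblast markers in each group, and their part in the Serping1 values was not tested.

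Cfi, complement factor I, which cleaves C3b and C4b, gave 0.30 (SE 0.09, adjusted p = 0.0653), 0.21 and 0.19 on the 3 days. On day 14 its rotenone values of 18.54, 18.46, 18.51 and 18.49 all lay above the control values of 18.40, 18.30, 18.44 and 18.12. In the mean of the 3 daily differences it rose by 0.23 (SE 0.05, adjusted p = 0.00454). C4bpa and C4bpb, the chains of the C4b-binding protein, gave day 14 differences of -0.42 (SE 0.17) and 0.10 (SE 0.19), and neither passed.

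Vtn, vitronectin, which blocks the membrane attack complex in plasma, lay between 19.49 and 19.78 on all arrays and passed on no day. Its day 14 rotenone values were 19.74, 19.62, 19.54 and 19.49 against 19.74 to 19.77 in controls, and the difference was -0.15 (SE 0.07, adjusted p = 0.271).

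Of the vitamin K-dependent proteins, Proc, the protein C that inactivates factors Va and VIIIa, measured 15.74, 15.87, 15.81 and 15.67 in control day 3 livers and 16.27, 16.31, 16.24 and 16.11 under rotenone. The groups did not overlap, and Proc rose by 0.46 (SE 0.08, a 1.37-fold higher mean, adjusted p = 0.00249). Proc kept this call without any array in turn, but not with the 8 arrays of day 3 alone. Its rotenone arrays lay above all control arrays on day 1 (15.89 to 16.02 against 15.63 to 15.85) and on day 14 (16.04 to 16.27 against 15.76 to 16.00) as well, with differences of 0.22 (adjusted p = 0.165) and 0.25 (adjusted p = 0.0986). In the mean of the 3 days Proc rose by 0.31 (SE 0.05, adjusted p = 0.000104).

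F2, prothrombin, gave -0.01, -0.07 and -0.25 with an SE of 0.09. On day 14 its rotenone values of 17.53, 17.51, 17.22 and 17.24 lay below all control values of 17.79, 17.56, 17.60 and 17.57, with an adjusted p of 0.136. F9 rotenone arrays lay above all controls on day 1 (18.25 to 18.40 against 18.05 to 18.17, difference 0.21, adjusted p = 0.173). F10, next to F7 on chromosome 16, differed by at most 0.04 from 0 in the 3 comparisons, and F7, which starts clotting with tissue factor, by -0.16 to 0.19. Pros1, protein S, the cofactor of protein C, gave 0.11, 0.17 and -0.20, none of which passed, and its cluster carries an identifier of chromosome 7 where RefSeq places the gene on chromosome 11.

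The enzymes of the vitamin K cycle, which modify these proteins, were read beside them. Days 1 and 3 each had 3 of 5 genes that fell, against 3.73% and 3.11% of all genes. On day 14 none passed by limma, against 5.98% of all genes higher and 3.33% lower. At an unadjusted p under 0.05, 1 was higher and 2 lower on day 14, against 3212 and 1991 of 22093 genes. Vkorc1, the vitamin K epoxide reductase, fell by 1.07 (SE 0.16, adjusted p = 0.000262) and 0.74 (adjusted p = 0.00982) on days 1 and 3, and its paralogue Vkorc1l1 fell by 0.59 and 0.64. Calu, a calcium-binding protein of the endoplasmic reticulum that restrains the carboxylase, fell by 0.69 and 0.55. On these days the 6 vitamin K-dependent members gave differences between -0.07 and 0.46.

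Among the other clotting factors, F5, the cofactor of factor Xa, gave the largest rise of the set on day 1. It measured 14.95, 14.96, 15.10 and 15.11 in controls and 16.04, 16.02, 15.94 and 15.67 under rotenone. The groups did not overlap, and F5 rose by 0.89 (SE 0.16, a 1.86-fold higher mean, adjusted p = 0.00152), which held without any array in turn.

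On day 3 F5 lay at 14.86 to 15.16 in controls and 15.10 to 15.47 under rotenone (0.33, adjusted p = 0.385), and on day 14 at 14.68, 15.35, 15.42 and 14.62 in controls and 15.11, 14.87, 15.29 and 15.41 under rotenone (0.15, adjusted p = 0.746). The control day 14 arrays fell into a lower and a higher pair, with all rotenone arrays between the lowest and the highest of them. F5 in the mean of the 3 days rose by 0.46 (SE 0.09, adjusted p = 0.00163).

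F12, the contact factor XII, lay at 15.95, 15.78, 15.97 and 15.80 in control day 1 livers and at 16.23, 16.27, 16.20 and 16.27 under rotenone, a rise of 0.37 (SE 0.10, adjusted p = 0.0452). The groups did not overlap, but the call was lost in 18 of 24 fits without 1 array (adjusted p up to 0.121). On day 3 the groups did not overlap either (0.35, adjusted p = 0.0696), and in the mean of the 3 days F12 rose by 0.29 (SE 0.06, adjusted p = 0.00173).

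F13b, the carrier subunit of factor XIII, which crosslinks fibrin, moved the other way. It measured 15.46, 15.49, 15.60 and 15.61 in control day 14 livers and 15.05, 15.22, 14.64 and 15.10 under rotenone, without overlap, and fell by 0.54 (SE 0.13, adjusted p = 0.0198). The call was lost without control replicate 3 or 4 or rotenone replicate 3 of that day (adjusted p up to 0.0901). F11 and Klkb1, which encode factor XI and prekallikrein of the contact system and lie next to each other on chromosome 16, passed on no day, with F11 at 0.53 on day 3 (SE 0.18, adjusted p = 0.141) and Klkb1 at -0.05.

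The 3 fibrinogen chains lay at the top of the intensity scale and passed on no day. Fga gave -0.04, -0.08 and -0.16 (SE 0.08), Fgb gave -0.04, -0.07 and -0.14 (SE 0.07), and Fgg gave -0.01, -0.09 and -0.17 (SE 0.08). On day 14 Fgb rotenone values were 19.00, 18.97, 18.90 and 18.86, below all control values of 19.08, 19.06, 19.09 and 19.07.

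Fga on day 14 lay at 19.32 in rotenone replicate 1 and at 19.14, 19.23 and 18.97 in the others, against 19.32 in all 4 controls, and Fgg at 19.56, 19.41, 19.33 and 19.26 against 19.55 to 19.56. Rotenone replicate 1 thus sat with the controls for both chains. The genes of the chains are direct neighbours on chromosome 2.

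The scale compresses differences near its top. Genes with a mean log2 level from 19 to 20, 41 in all and 6 of them members, had a median SD within groups of 0.06 and a median absolute change of 0.06, against 0.20 and 0.33 for genes from 14 to 16. C3, Vtn, Fga, Fgb, Fgg and Plg are those 6 members, and the largest absolute change among them was 0.17. C3 held exactly the same value on 4 arrays and Fga on 3. The median change of genes at or above 19 on day 14 was -0.09.

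**Figure D3:**
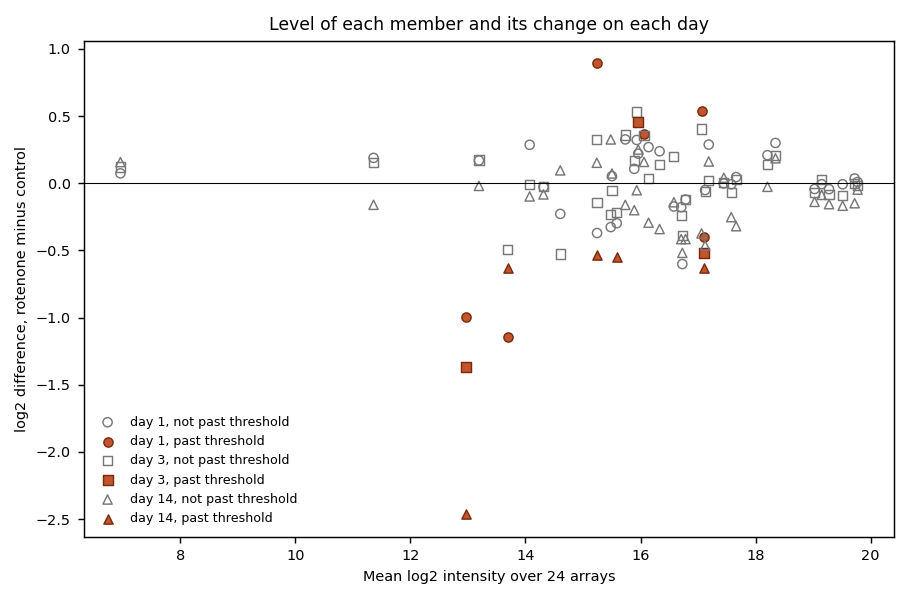
Mean log2 intensity over 24 arrays (x axis) and log2 difference of rotenone minus control (y axis) for each member on days 1 (circles), 3 (squares) and 14 (triangles), filled where the change passed. The 6 members at or above 19 stay within 0.17 of 0, and the 14 filled symbols lie between levels of 12.96 and 17.11.

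Of the proteins of fibrinolysis, Plg, plasminogen, gave -0.01, 0.03 and -0.09 (SE 0.07), with all day 14 rotenone values (19.11, 19.10, 19.08 and 19.09) below the control values of 19.15 to 19.23. Cpb2, the carboxypeptidase that protects fibrin from lysis, gave -0.32 on day 14 (SE 0.13, adjusted p = 0.181), with 17.77, 17.55, 17.10 and 17.17 under rotenone against 17.51 to 17.91. Serpinf2, the plasmin inhibitor, gave -0.17, 0.20 and -0.14 and did not pass.

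The anticoagulant serpins passed on no day either. Serpinc1, antithrombin, lay between 14.18 and 14.38 on all 24 arrays, with differences of -0.03, -0.03 and -0.08 and an SE of 0.07. Serpind1, heparin cofactor II, gave 0.29, 0.02 and 0.16. Serpina10, the inhibitor of factor Xa that acts with protein Z, gave -0.33, -0.23 and 0.33 (SE 0.14), while Proz, protein Z itself and not in the set, fell by 0.57 on day 14 (SE 0.11, adjusted p = 0.00251). The differences of the Serpina10 change between days did not pass.

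In all, the 30 members that passed on no day gave differences between -0.60 and 0.53. The 3 of smallest SE were C3 (SE 0.06), Plg and Vtn (both 0.07), with changes between -0.15 and 0.04. In the mean of the 3 days 4 members were higher (F5, Proc, F12 and Cfi, 10.3%) and 6 lower (C6, Mbl1, C8a, Mbl2, C1s and F13b, 15.4%), against 12.7% and 8.31% of all genes and 27.9% and 23.7% of those at or above 14. This balance turned with scaling, since after quantile normalization 8 were higher and 3 lower, with Mbl2, C1s and F13b lost and C8g, Serping1, F9 and F11 gained. C6 fell by 1.61 (SE 0.14, adjusted p = 7.19e-08), Mbl1 fell by 0.76 (adjusted p = 9.75e-07) and C8a fell by 0.51 (adjusted p = 4.39e-06).

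By sign, 14 members were below 0 and 6 above 0 on all 3 days, and 11 were above 0 on days 1 and 3 and below 0 on day 14. On days 1 and 3 the members were evenly divided, 20 above and 19 below 0, with medians of 0.01 and 0.00. On day 14, 29 of 39 were below 0 and the median was -0.15, against 0.01 for all genes and 0.03 for genes at or above 14. After quantile normalization 25 were below 0 and the median was -0.03. Complement members had a median of -0.34 on day 14 (16 of 19 below 0) and members of coagulation and fibrinolysis -0.09 (13 of 20 below 0). Across the 39 members the changes of day 1 and day 3 correlated with r = 0.83, those of day 3 and day 14 with r = 0.74 and those of day 1 and day 14 with r = 0.63, where each day has its own controls and the points share arrays within a day. The rank correlations (Spearman) of these pairs were 0.88, 0.47 and 0.51. The sign was the same on both days for 33, 23 and 23 of the 39 members.

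The day 14 shift was unequal between animals. Replicate 1 had 24 of 39 members below the control mean, replicate 2 had 27, replicate 3 had 31 and replicate 4 had 29. Without replicate 1 the median was -0.19 and 30 members were below 0, and 6 members passed as lower, with C9 and Cpb2 gained and C1s lost. Leaving out any other array gave medians between -0.17 and -0.11.

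**Figure D4:**
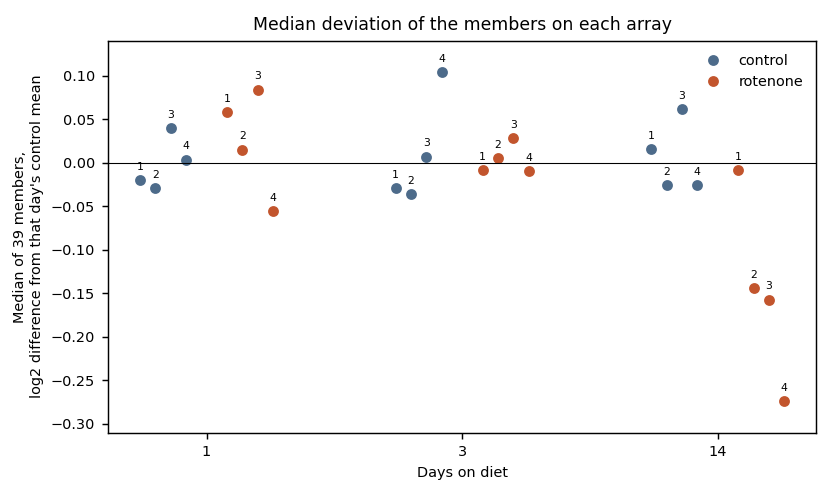
Median over the 39 members of the log2 difference from that day's control mean (y axis) on each array, by days on diet (x axis), with replicate numbers above the points. Rotenone day 14 replicates 2, 3 and 4 lie at -0.14, -0.16 and -0.27, below every other array, and replicate 1 lies at -0.01.

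Control livers were also compared between days. By limma no member was higher or lower in control day 3 against day 1 livers, as 0% of all genes were higher and 0% lower. An unadjusted p under 0.05 was reached there by 1 member, and by 296 genes higher and 324 lower of 22093. In control day 14 against day 1 livers no member passed, against 0% of all genes higher and 0.177% lower. An unadjusted p under 0.05 was reached there by 1 member (Serping1, higher), and by 456 genes higher and 876 lower of 22093. Member differences lay between -0.28 and 0.17 in the first comparison and between -0.25 and 0.39 in the second. In control day 14 against day 1 livers 30 of 39 members were above 0 (median 0.04), against 10339 of 22093 genes and 344 of the 574 at or above 14. Control day 14 against day 3 livers gave 3 members higher and 0 lower at an unadjusted p under 0.05. None of them passed by limma, and the share of all genes was not taken there. The part of the control levels in the day 14 rotenone differences was not tested.

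Complement genes outside the set, among them those of macrophages, numbered 23 measured of 26. On day 1, 5 were higher and 0 lower, with C1qb at 1.02 (SE 0.28, adjusted p = 0.0329), the macrophage receptor Vsig4 at 1.03 (adjusted p = 0.0348), C3ar1 at 0.80 (adjusted p = 0.0413) and Cfp, properdin, at 0.78. Clu, clusterin, which blocks the membrane attack complex, rose by 0.43 on day 1 and by 0.39 on day 3. On day 3, 2 were higher and 1 lower, and on day 14, 1 was higher and 2 lower, with Cr1l, the rodent membrane regulator Crry, up by 0.61 and C7 and Itgb2 down. Among all genes 5.69%, 3.53% and 5.98% were higher on days 1, 3 and 14, and 3.73%, 3.11% and 3.33% lower. C1qb and Vsig4 are also on the list of macrophage markers, whose values stand beside Serping1. Calls of genes outside the set, here and in the other lists, were not checked under other scalings or with arrays left out.

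Of the other genes of coagulation and fibrinolysis, 30 of 32 were measured and none passed on day 1 by limma. At an unadjusted p under 0.05, 3 were higher and 2 lower on day 1, against 2958 and 2426 of 22093 genes. On day 3, 0 were higher and 2 lower by limma (Itgb3 and Plat), and on day 14, 1 was higher and 2 lower. The limma shares of all genes are those given for the other complement genes above. Kng2, a rat kininogen, rose by 0.62 on day 14 (SE 0.12, adjusted p = 0.0025), and Proz and Procr, the protein C receptor, fell by 0.57 and 0.90.

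Of 16 liver transcription factors measured of 18, 1 was higher and 2 lower on day 1, and 1 passed in each direction on days 3 and 14. The shares of all genes on these days stand with the other complement genes above. Stat3, which carries interleukin 6 signals to acute phase genes, rose by 1.48 on day 1 (SE 0.27, adjusted p = 0.00136), and Cebpa, a C/EBP factor of mature hepatocytes, fell by 0.77 (adjusted p = 0.015). Nr3c1, the glucocorticoid receptor, fell by 0.76 and 0.75 on days 1 and 3, Foxa1 fell by 1.47 on day 14, and Dbp, a circadian factor, rose by 3.23 on that day.

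Of 15 acute phase genes measured of 16, 2 were higher on each of the 3 days, with 1 lower on days 1 and 14 and 0 on day 3. The other 12, 13 and 12 did not pass, and the medians of the list were 0.08, -0.004 and 0.004. Among all genes 5.69%, 3.53% and 5.98% were higher on days 1, 3 and 14, and 3.73%, 3.11% and 3.33% lower. Lbp, the lipopolysaccharide-binding protein, rose by 2.60, 2.98 and 2.38 on the 3 days (SE 0.34) and Il1r1, an interleukin 1 receptor, by 1.81, 1.48 and 1.79 (SE 0.38). Orm1, an acid glycoprotein, fell by 1.14 on day 1 and Crp, C-reactive protein, by 0.50 on day 14. In the same livers the fibrinogen chains, which also rise in the rat acute phase response, gave the differences near 0 described above, at a level where the scale compresses changes.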

How the data were processed

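The authors scanned the arrays, corrected them for probe base content (Guanine Cytosine Count Normalization), then ran Signal Space Transformation, with RMA as the last step, which gave 1 intensity for each feature. The genome build behind the array's annotation is not given in the sources used here. The deposited intensity values are linear. Of 70580 features, 1738 control probe sets were set aside, and log2 of the value plus 1 was taken, without further scaling. Genes were named from platform annotation, each by the cluster of highest mean (Mbl2 and Serpina10 have 2 clusters). Annotation IDs of 38 of 39 members matched RefSeq, and Masp1 carried none.

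A model of 6 group means was fitted with limma 3.58.1 in R 4.3.3 after the code was tested on simulated data. P-values are two-sided. The members, the lists beside them and the naming rule were chosen with earlier results of these data known, and the mean of the 3 days was added after the members' values were seen. The rule named the 6 strongest calls in each direction per day, the members that differed among days, fibrinogen chains, C3 and F2, and the 3 others of smallest SE, with other members by range or group. Alternatives were a filter on low values (clusters below the median mean left out), a trended robust variance, quantile normalization, array-median centring, a pseudocount of 16, replicate number as a block, array weights, the mean of a symbol's clusters, each array left out, the 8 arrays of 1 day, and a filter after the study's methods.

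The precision rests on 4 arrays per group, and their number limits it.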

Additional observations from a re-analysis of the deposited data

Results flagged for a closer look

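The effect of rotenone on Serping1 differed among the 3 days in the test of any difference (adjusted p = 0.0402), with changes of 0.54, 0.40 and -0.37 on days 1, 3 and 14. This call was lost after quantile normalization, after array-median centring and with 1 array left out for 18 of the 24 arrays. For C6 the change on day 14 lay below that on day 1 (adjusted p = 0.0462), a call lost after quantile normalization, with array weights and with 1 array left out for 20 of the 24.

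In 21 of 234 sets of 4 arrays (39 members in 6 groups) 1 array lay far from the other 3 by the gap ratio of Dixon, which chance gives in about 1 of 20 sets. The ratio sets the gap against the range of the 4 values, so that it also marks small gaps near the compressed top of the scale. Fga in control day 1 lay at 19.308 in replicate 1 against 19.321 in the others. In control day 1, replicate 1 was low for C3 (19.75), Cfi (17.99), Vtn (19.71) and Fga (19.31), while replicate 4 was low for Masp1 (13.83) and high for C5 (16.26). In rotenone day 1, replicate 4 was low for Masp1 (14.03), C8b (16.16), Klkb1 (15.15) and Plg (19.09).

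In control day 3, replicate 1 was low for F2 (17.53), replicate 2 high for F11 (16.08), replicate 3 low for C8b (16.18) and replicate 4 high for C3 (19.79). In rotenone day 3, replicate 1 was low for C8b (16.65) and replicate 3 high for F2 (17.67). In control day 14, replicate 4 was low for Cfd (6.56) and F10 (17.37) and replicate 1 high for F2 (17.79). In rotenone day 14, replicate 1 was high for C8g (15.86) and Pros1 (16.00), the array that also had the smallest median shift of the members. None of these sets belongs to a member that passed on a single day.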

How the results depend on the processing

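All 14 calls on single days kept their direction under every alternative that gave a value, and all 14 also stayed past the threshold under the filter on low values, the trended robust variance, the pseudocount of 16, array weights and the mean of a symbol's clusters. Quantile normalization lost 7 (C8a on all 3 days, Serping1 and F12 on day 1, C1s and F13b on day 14) and array-median centring 2 (C8a on day 1 and C1s on day 14). Replicate numbers did not pair the animals (12 pairs, r from -0.11 to 0.17, 2 of them over 0.1). With the replicate block, F12 on day 1 was lost, so that 2 members were higher on day 1, and no other call changed. Quantile normalization gave 1 member higher on day 1, 3 higher and 1 lower on day 3, 1 higher and 2 lower on day 14, 8 higher and 3 lower in the mean of the 3 days (Mbl2, C1s and F13b lost) and 0 with any difference among days. Centring gave 0 with any difference, so that the Serping1 call was lost in both. The filter on low values and the pseudocount of 16 each gave 2 higher on day 3 and 1 on day 14, and the filter gave 2 with any difference (Serping1 and C6). With the 8 arrays of a day alone, 0 were higher and 1 lower on day 3 and 1 was lower on day 14. These fits lost C8a and F12 on day 1, C8a and Proc on day 3, and C1s, Mbl1, C8a and F13b on day 14. The filter after the study's methods gave 0 higher on all 3 days, 2 lower on day 1 (Mbl1 and C6) and 1 lower on days 3 and 14, in each case C6. The cause of these shifts was not tested.

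Leaving out 1 array at a time gave 1 to 4 members higher and 1 to 4 lower on day 1, 1 to 2 higher and 2 to 3 lower on day 3, 3 to 6 lower and 0 to 0 higher on day 14, 4 to 5 higher and 6 to 7 lower in the mean of the 3 days, and 0 to 1 with any difference among days. Day 1 had its fewest rises without control day 1 replicate 1 or 4 or rotenone day 1 replicate 2 or 3. It had its fewest falls without replicate 4 of either day 1 group. The 2 control comparisons against day 1 stayed at 0. All-gene medians moved by under 0.1 with scaling. The median of the members on day 14 was -0.15 as reported, -0.13 after centring and -0.03 after quantile normalization. The top of the intensity scale limits what can be seen for C3, Vtn, plasminogen and fibrinogen.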
